A study of Mus musculus with 27 samples.

Results

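Whole esophagi of Nrf2-/-Keap1-/- pups were set against whole esophagi of wild-type pups at postnatal day 7 (P7), with 3 arrays in each group, each hybridised with 2 colours, 6 of the 27 arrays of the series. The arrays of these 2 groups were chosen by genotype and age alone. Wild-type pups were C57BL/6J, and the mutants carried both null alleles, from lines that the paper describes as on a C57BL background. Nrf2-/- pups (3 arrays) and Keap1-/- pups (3 arrays) of the same age and background entered the same fit. Both alleles are lost in every cell of the animal, and RNA came from snap-frozen esophagus with its layers not separated, so that epithelium, muscle, vessels and any fat left on the wall were measured together. RNA of the esophagus was labelled with Cy5 and a common reference RNA of 11 mouse cell lines with Cy3. The labels call the arrays of a group biological replicates, and the p-values measure the spread between these samples. A level is the log2 ratio of Cy5 to Cy3, so it can be compared between arrays for 1 gene and not between genes. In such samples, more cells of a type and more RNA per cell of that type cannot be told apart.

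Nrf2, encoded by Nfe2l2, is a transcription factor that binds antioxidant response elements and drives genes for glutathione synthesis, quinone reduction and export of conjugates. Keap1 is the adaptor that brings Nrf2 to a ubiquitin ligase for degradation, so loss of Keap1 alone stabilises Nrf2. In the squamous epithelium of the esophagus and forestomach, loss of Keap1 alone is known for hyperkeratosis, and loss of Nrf2 as well relieves it. Comparing the double mutant with wild-type pups asks what differs from a normal esophagus once both arms of the pathway are gone.

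The 6 arrays held 18249 genes that could be tested, of 27788 genes on the array. The median Cy5 intensity was 88.5 to 113 on the wild-type arrays and 120.02 to 137 on the Nrf2-/-Keap1-/- arrays, and 61.3% to 65.4% and 65.4% to 68.5% of spots were well above background in Cy5. Wild-type arrays correlated with each other at r = 0.918 to 0.946 over the tested genes, and with the Nrf2-/-Keap1-/- arrays at r = 0.874 to 0.964, so the genotypes did not form separate blocks. The wild-type arrays shared a slide of their own, and the Nrf2-/-Keap1-/- arrays lay on 2 other slides, so slide and genotype cannot be told apart. All 3 wild-type arrays had high Xist (1.01 to 1.46) and low Eif2s3y, a Y-linked gene (-3.46 to -2.85), as had Nrf2-/-Keap1-/- replicate 2 (1.36 and -3.52), whereas Nrf2-/-Keap1-/- replicates 1 and 3 had Xist at -2.92 and -2.98 and Eif2s3y at 2.65 and 2.87. Sex was thus unequal between the groups, and only replicate 2 of the double mutant matched the wild-type pups. Wild-type replicate 2 also stood apart, with a skeletal muscle level of -0.99 against -0.10 and 0.08 on the other wild-type arrays, where the level of a list is the mean of its genes after each gene is centred on the 12 P7 arrays.

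Nfe2l2, the gene lost in the mutants, fell on every double mutant array. Its level was -0.23, 0.00 and -0.55 in wild-type replicates 1 to 3 and -4.08, -4.13 and -4.14 in Nrf2-/-Keap1-/- replicates 1 to 3. The groups lay far apart, and the difference of -3.86 ± 0.13 (SE, n = 3 per group, limma adjusted p = 1.4e-07) was 14.5-fold. This value averages 3 probes that behaved differently. Probes at chr2:75519430-75519489 and chr2:75519576-75519635 (mm7, the build of the array design) differed by -6.83 and -4.42, and the probe at chr2:75535606-75535665 differed by -0.33, from -0.91 in wild-type to -1.25 in the double mutant. With spots marked as outliers left out, the gene differed by -1.64 (adjusted p = 0.13).

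Keap1 was measured by 1 probe, at chr9:21107406-21107846 (mm7). Its level was 0.54, 1.00 and 0.42 in wild-type pups and -0.50, -0.32 and -0.19 in Nrf2-/-Keap1-/- pups. The groups did not overlap, but the difference of -0.99 ± 0.22 missed the threshold (adjusted p = 0.078). Keap1-/- pups had -0.26, 0.22 and 0.64, which overlapped the wild-type values, and Nrf2-/- pups 1.02, 0.81 and 1.24. Where this probe lies relative to the deleted part of Keap1 is not given in the sources used here, so it checks the Keap1 genotype only weakly.

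Across all tested genes, 83 passed an adjusted p of 0.05 between Nrf2-/-Keap1-/- and wild-type pups, 0.455% of those tested. Of these, 60 were higher (0.329%) and 23 lower (0.126%) in the double mutant. At an unadjusted p of 0.05, 3213 genes passed (17.6%), 1744 higher (9.56%) and 1469 lower (8.05%). All 83 called genes had groups that did not overlap, as had 21.8% of all tested genes (11.8% above and 10.1% below wild-type). Median centring in place of loess gave 67 higher and 7 lower, and scale normalization between arrays 62 higher and 61 lower, so the share of decreases depended on the scaling. The main fit took its spread from all 12 P7 arrays, the single mutants among them. A fit of the 2 groups alone called 2 higher, Cfd and Rbm45, and 1 lower, Nfe2l2. The deposited ratios gave 3 higher and 1 lower.

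The number of calls rested on single arrays. It was 5 higher and 2 lower without wild-type replicate 1, 8 and 2 without wild-type replicate 2, 203 and 66 without wild-type replicate 3, 6 and 3 without Nrf2-/-Keap1-/- replicate 1, 27 and 11 without replicate 2, and 4 and 1 without replicate 3. With sex as a covariate, 3 genes were called, Nfe2l2, Rbm45 and Cfd. All 83 called genes kept their direction at an unadjusted p of 0.05 in that fit. They had been chosen on these same arrays at a stricter threshold, so this gives them no separate support. Among the 24 settings tried, counting each left-out array, Rbm45 was called in 24 of 24, Nfe2l2 in 23 of 24 and Cfd in 21 of the 22 that measured it, and all other called genes in 17 or fewer. Of the 83 genes, 82 kept their direction in every setting, and Gabra4 did not. Since none of the 83 overlapped between the groups, leaving out an array of either group could not reverse a direction. For those settings a kept direction is therefore no support.

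**Figure D1:**
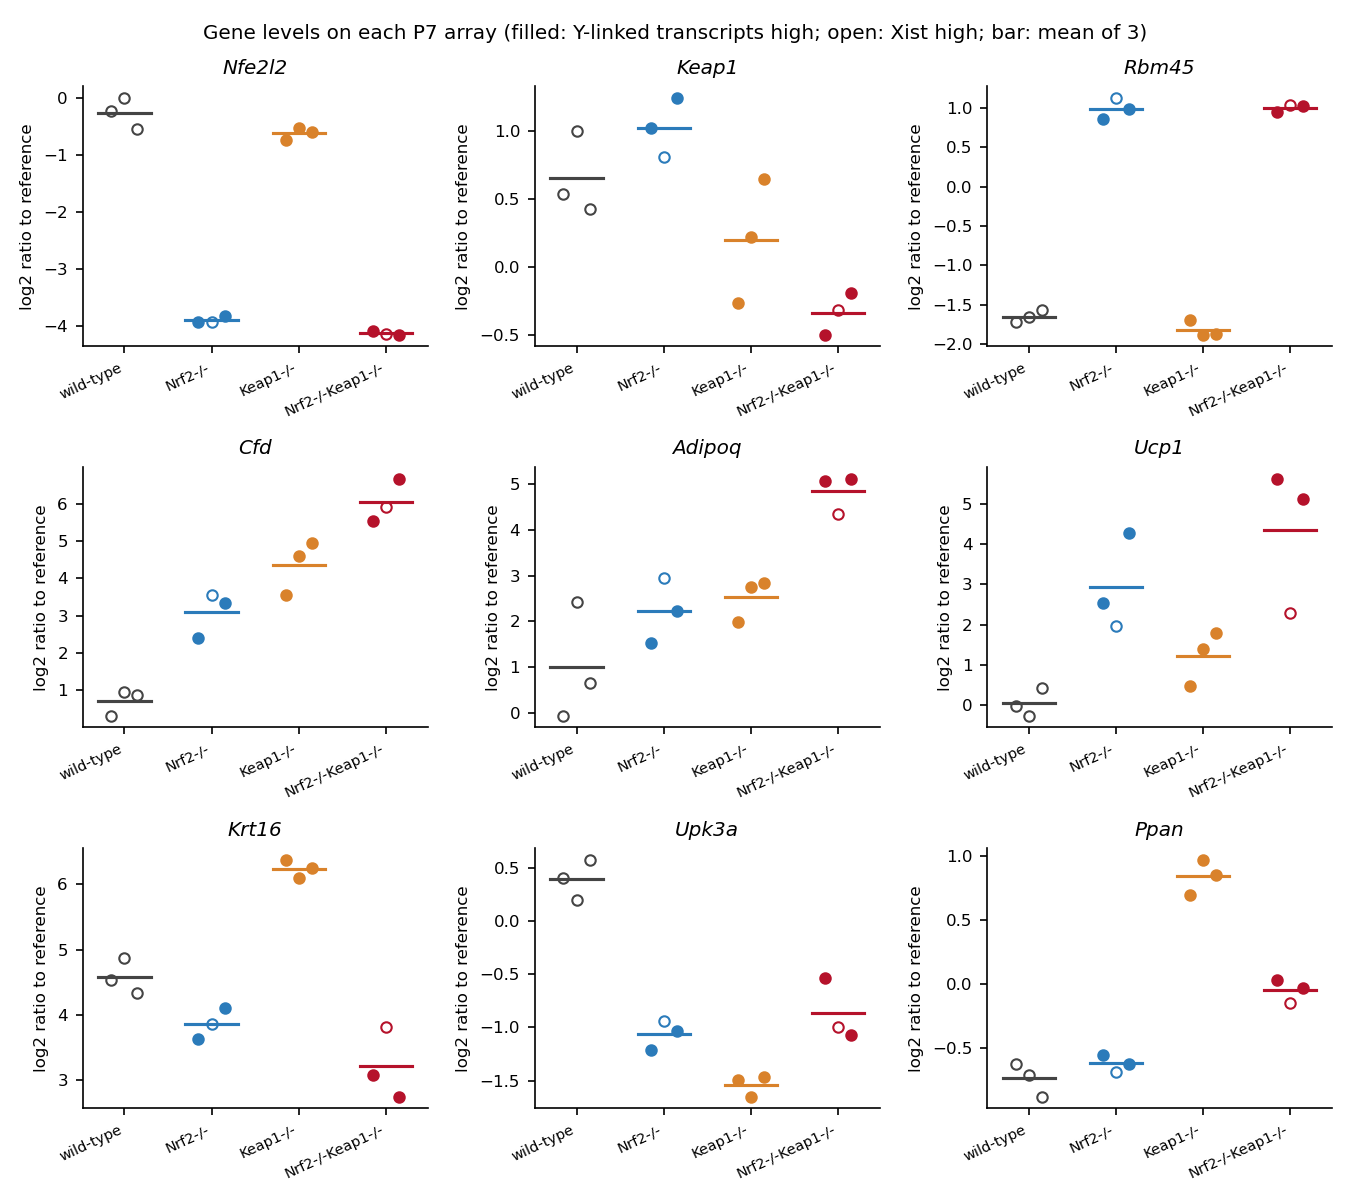
Levels of 9 genes on the 12 P7 arrays, as log2 ratio of sample to reference (y axis) by genotype (x axis). Each point is 1 array, open where Xist was high and filled where Y-linked transcripts were high, and bars are means of 3. Nfe2l2 lay near -4 on every array of Nrf2-/- and Nrf2-/-Keap1-/- pups, Rbm45 near 1, and Cfd was lowest in wild-type and highest in Nrf2-/-Keap1-/- pups.

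The largest increases in the double mutant were in adipocyte genes. Cfd encodes complement factor D, also called adipsin, which fat cells secrete. Its level was 0.32, 0.96 and 0.88 in wild-type pups and 5.55, 5.92 and 6.67 in Nrf2-/-Keap1-/- pups. The lowest double mutant array was far above the highest wild-type array, and the difference was 5.33 ± 0.41 (40.2-fold, adjusted p = 0.00042). Nrf2-/-Keap1-/- replicate 2, which matched the wild-type pups in sex, lay between the others.

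Adipoq, the hormone adiponectin of mature adipocytes, was at -0.06, 2.41 and 0.64 in wild-type and at 5.06, 4.35 and 5.11 in Nrf2-/-Keap1-/- pups. The difference was 3.84 ± 0.56 (14.3-fold, adjusted p = 0.027). Plin1, the coat protein of adipocyte lipid droplets, was at 0.24, 2.16 and 0.60 in wild-type and at 5.67, 4.01 and 4.68 in Nrf2-/-Keap1-/- pups, a difference of 3.79 ± 0.52 (13.8-fold, adjusted p = 0.023). In both genes wild-type replicate 2 was the highest of its group and still under every double mutant array. The calls of Adipoq and Plin1 were lost in 9 of 24 settings each.

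Of 28 white fat genes on the array, 26 were tested. Cfd, Adipoq and Plin1 were called, all higher, beside 0.329% of all tested genes, and 23 of the 26 differed upwards. The median difference was 0.72, beside 0.00 over all tested genes, and 14 of the 26 lay above wild-type without overlap, as did 11.8% of all tested genes. Cidec, a lipid droplet protein, was at 4.23, 1.44 and 0.15 in wild-type and 5.71, 4.56 and 4.69 in Nrf2-/-Keap1-/- pups (3.05 ± 0.88, adjusted p = 0.12), with wild-type replicate 1 near the double mutant. Fabp4, a fatty acid carrier of fat and endothelium, overlapped between the groups (0.69 ± 0.36, adjusted p = 0.34). Retn, the adipocyte hormone resistin, was not well above background on any wild-type array. It passed the filter on low values through the double mutant arrays alone, where it was at -0.21, 1.08 and 0.79. It is still 1 of the 26 genes in these counts and in the white fat level, so its own rise gives them no support. Nnat, Cebpa and Dgat2 were the members with differences under 0.

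Averaged over the 26 genes, the white fat level was -0.80 to -0.55 in wild-type, 0.32 to 0.89 in Nrf2-/-Keap1-/-, -0.27 to 0.25 in Nrf2-/- and -0.24 to 0.26 in Keap1-/- pups. Wild-type arrays were lowest of the 4 genotypes and the double mutant arrays highest, with no overlap between them. The 2 single mutants lay between and overlapped each other. Leaving out 1 array at a time gave list medians between 0.58 and 0.99 for double mutant against wild-type.

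Brown fat was read from Ucp1, the uncoupling protein that defines it. Ucp1 was at -0.03, -0.26 and 0.42 in wild-type pups, well above background on 1 of 3 arrays, and at 5.63, 2.30 and 5.13 in Nrf2-/-Keap1-/- pups. The groups did not overlap, and the difference of 4.31 ± 0.81 missed the threshold (adjusted p = 0.052), which it passed in 6 of 23 other settings and not with the fat level as a covariate, where it was -0.81. The double mutant array of matching sex was the lowest of its group. Nrf2-/- pups had 2.54, 1.96 and 4.29, and Keap1-/- pups 0.48, 1.40 and 1.78. None of the 15 tested brown fat genes was called (19 on the array, median 0.66), though scale normalization called 1 higher and gave a median of 0.35. Cidea, a droplet protein of brown fat that is also made in epithelia, was between 5.46 and 6.48 on all 6 arrays, and Elovl3 was not tested because it was well above background on 1 array. Cox7a1, Cox8b, Fabp3 and Plin5 on this list are also made by muscle, and the muscle level of wild-type replicate 2 was low, as given above.

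**Figure D2:**
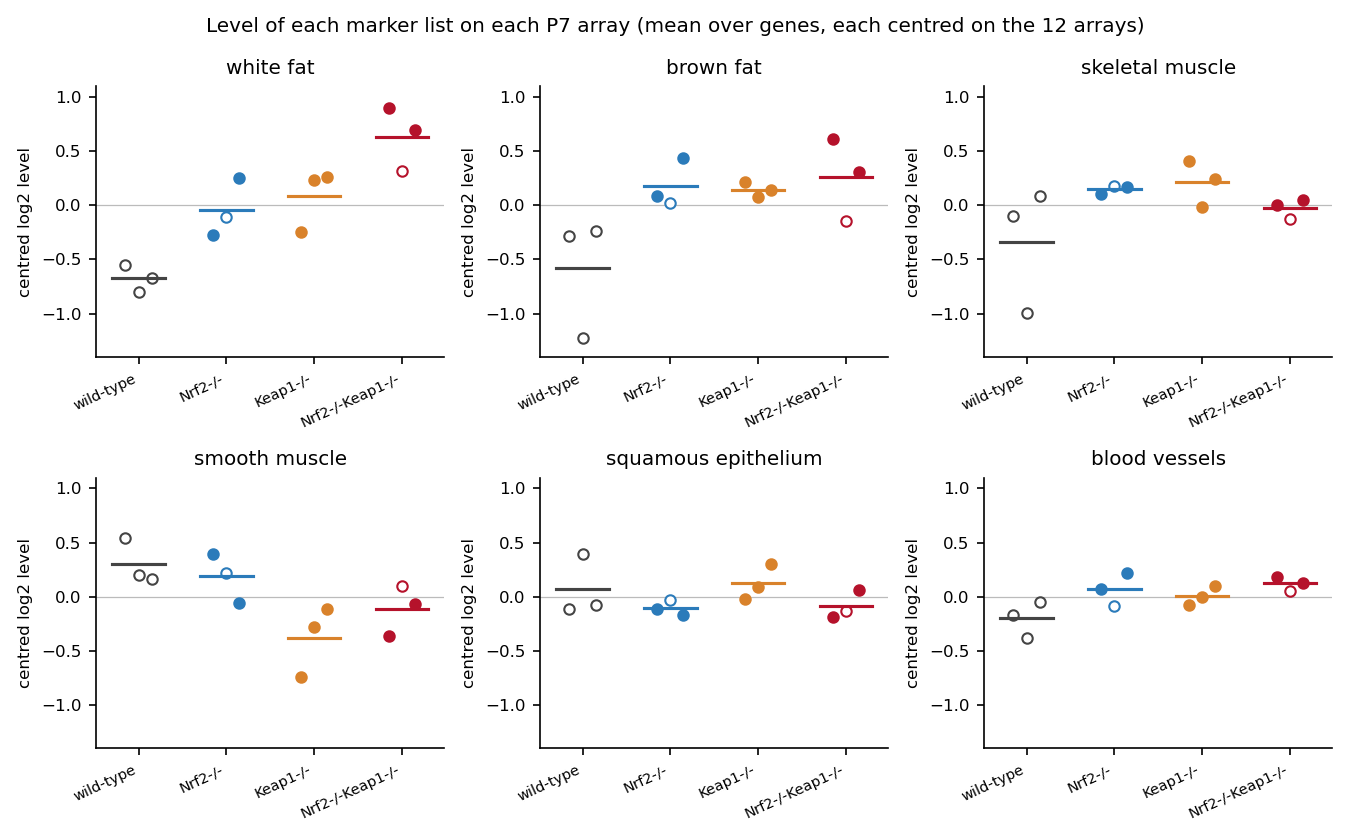
Level of 6 marker lists on the 12 P7 arrays (y axis, mean over the tested genes of a list after centring each gene on the 12 arrays, log2) by genotype (x axis). Points are arrays, open where Xist was high, and bars are means of 3. White fat separated wild-type (-0.80 to -0.55) from Nrf2-/-Keap1-/- pups (0.32 to 0.89), whereas the squamous epithelium levels overlapped and wild-type replicate 2 was low in skeletal muscle (-0.99).

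Other tissues of the wall gave smaller differences. Among 11 tested blood vessel genes, all differed upwards with a median of 0.31. Cdh5, the cadherin of endothelial junctions, was the 1 called, beside 0.329% of all tested genes called higher. Its level was 3.92, 3.64 and 4.24 in wild-type and 4.79, 4.74 and 4.85 in the double mutant (0.86 ± 0.15, adjusted p = 0.046), and its 2 probes differed by 0.41 and 1.31. Cdh5 was called in 8 of 24 settings. The list's median was 0.10 under scale normalization and 0.12 with processed signals, with 8 and 7 of 11 genes upwards and no call, and -0.14 with the fat level as a covariate. Of 10 smooth muscle genes none was called, and the median was -0.45, beside -0.20 under median centring and -0.85 with 3 lower calls under scale normalization. Skeletal muscle had no call among 20 genes (median 0.40), though scale normalization turned that median to -0.15. Its level was -0.10, -0.99 and 0.08 in wild-type and 0.00, -0.13 and 0.05 in the double mutant, so only wild-type replicate 2 stood apart. Macrophage and fibroblast matrix levels overlapped between the 2 groups (0.05 to 0.22 against 0.00 to 0.24, and 0.09 to 0.37 against 0.13 to 0.33).

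Several large increases outside the fat list were low on wild-type replicate 2, the array with little muscle. Chrna9, a subunit of nicotinic acetylcholine receptors, was at 1.49, 0.17 and 3.02 in wild-type and 5.02, 4.29 and 4.99 in the double mutant (3.21 ± 0.53, adjusted p = 0.037). Pgpep1l, related to pyroglutamyl peptidase, was at 1.68, 0.66 and 2.58 against 3.91, 3.73 and 4.39 (2.37 ± 0.40, adjusted p = 0.043). Crygd, a gamma crystallin, was at 0.56, 0.20 and 1.16 against 2.25, 1.93 and 2.38 (1.55 ± 0.25, adjusted p = 0.034). In all 3 genes replicate 2 was the lowest wild-type array, and none of them was called without that array (adjusted p from 0.062 to 0.095) or without wild-type replicate 1 (0.0929 to 0.0934). Their differences without that array were 2.51, 1.88 and 1.33. With the skeletal muscle level as a covariate, an alternative added after seeing the data, they were 2.56, 1.86 and 1.28 (adjusted p = 0.016, 0.0094 and 0.028), and all 3 genes were called.

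Retnla, a secreted protein related to resistin that is made by alternatively activated macrophages and by fat, was at 0.81, 1.91 and 1.95 in wild-type and 4.44, 4.44 and 4.46 in Nrf2-/-Keap1-/- pups. The difference was 2.89 ± 0.42 (7.40-fold, adjusted p = 0.027). Nrf2-/- pups had 4.15, 3.01 and 4.19, and Keap1-/- pups 2.23, 1.05 and 0.95. With the processed signals of Feature Extraction, Retnla differed by 0.85 (adjusted p = 0.48). Slc36a2, a proton-coupled amino acid transporter found in fat, was at -0.27, 0.15 and -0.29 against 2.40, 0.94 and 1.57 (1.77 ± 0.32, adjusted p = 0.048), and its 2 probes differed by 0.26 and 3.29. A probe without a gene name, NAP025923-1, was at 3.02, 3.39 and 4.30 in the double mutant and was not well above background on any wild-type array, so no fold is given. It was 1 of 5 called genes that passed the filter on low values through the double mutant arrays alone.

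The 5 called increases that follow were picked after the values were seen and are not the next in rank. Cox7c and Cox5b, subunits of cytochrome c oxidase, rose by 1.28 ± 0.15 (adjusted p = 0.012) and 0.80 ± 0.11 (adjusted p = 0.023). Ndufv1 and Ndufs6, subunits of complex I, rose by 0.80 ± 0.13 (adjusted p = 0.034) and 0.69 ± 0.11 (adjusted p = 0.033). Mfn2, which fuses mitochondria, rose by 0.85 ± 0.14 (adjusted p = 0.034). Cox7c was at -1.64, -1.94 and -1.66 in wild-type and at -0.74, -0.42 and -0.24 in the double mutant, and was called in 17 of 24 settings. Cox5b was called in 13 of 23, Ndufv1 in 12 of 23, Ndufs6 in 10 of 23 and Mfn2 in 11 of 24. Scd1, the stearoyl-CoA desaturase, was at -2.23, -2.09 and -2.13 against -1.23, -1.50 and -1.27 (0.82 ± 0.12, adjusted p = 0.027). It was the 1 called gene of 19 for lipid synthesis, beside 0.329% of all tested genes called higher. No list of respiratory genes was tested, and these 5 genes stand for no group.

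Genes were then placed between wall and epithelium by a contrast of Nrf2-/- arrays, of which the P7 arrays had entered the same fit. Adult Nrf2-/- epithelium (8 weeks, 3 arrays) minus P7 Nrf2-/- whole esophagus (3 arrays) placed each gene on the epithelium side (1 or more on the log2 scale), the wall side (-1 or less) or neither. This contrast also carries age, slide, scan and software version, and it parts the tissues only roughly, with 6 of 21 keratins on the wall side and 4 on the epithelium side. Of the 83 called genes, 82 differed from the same wild-type arrays in the same direction in P7 Nrf2-/- pups. A gene raised on those arrays moves towards the wall side, and a lowered one towards the epithelium side, unless adult arrays share the change. The shares by side are therefore not independent of the calls. Of the 60 called increases, 17 (28.3%) lay on the wall side and 3 (5%) on the epithelium side, beside 13.2% and 8.86% of all tested genes. Of the 23 called decreases, 4 (17.4%) lay on the wall side and none on the epithelium side. The 3 increases on the epithelium side were Retnla, Samd12 and Ifi27. Cfd and Adipoq had values of -3.01 and -2.56 on this axis, and Plin1 also lay on the wall side. Krt16 was among the decreases on the wall side (-1.09).

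**Figure D3:**
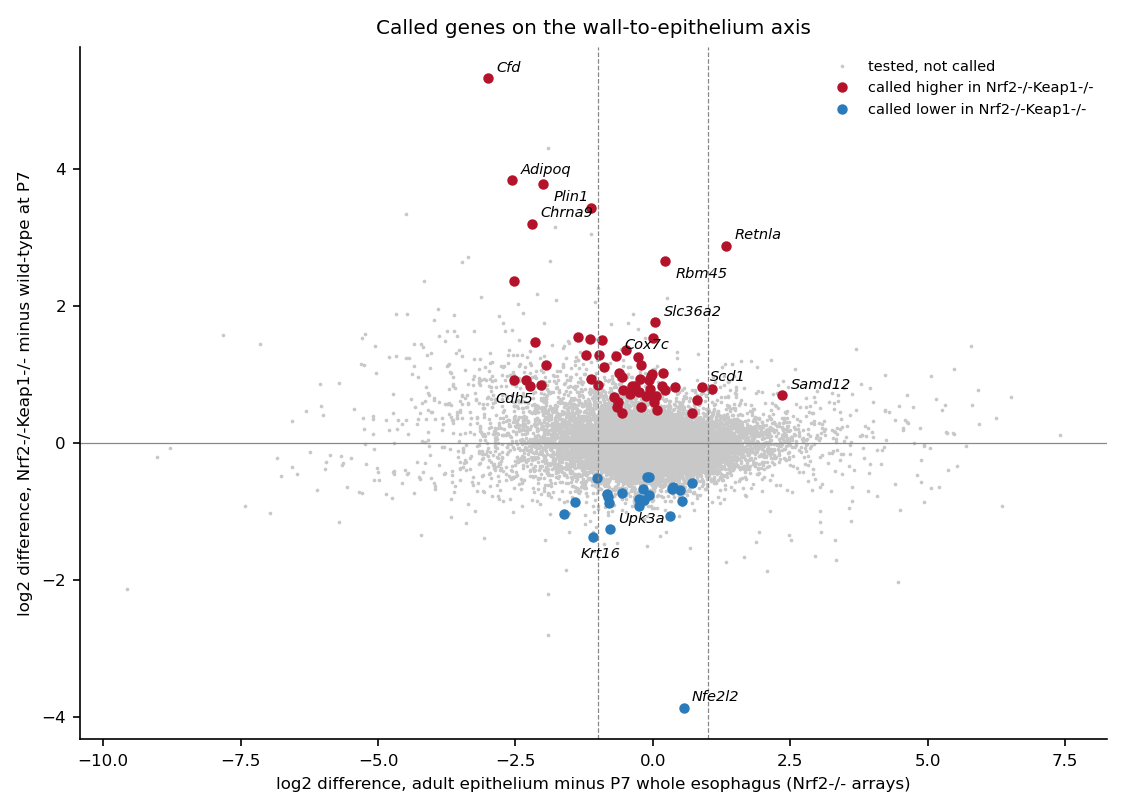
Difference between Nrf2-/-Keap1-/- and wild-type pups at P7 (y axis, log2) against the difference between adult epithelium and P7 whole esophagus of Nrf2-/- mice (x axis, log2). Grey points are tested genes, red and blue points the 60 called increases and 23 called decreases, and dashed lines mark -1 and 1. The increases of Cfd, Adipoq and Plin1 lie on the wall side, Cfd at -3.01 and Adipoq at -2.56 on the x axis.

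With the white fat level of each array as a covariate, 2 genes were called (0.011% of those tested), Nfe2l2 (-4.03, adjusted p = 0.0038) and Rbm45 (2.84, adjusted p = 0.0038). All 83 genes kept their direction, and 15 shrank to less than 50% of their difference. Cfd, Adipoq and Plin1, themselves part of the covariate, went from 5.33 to 4.13, from 3.84 to 3.09 and from 3.79 to 1.95. Slc36a2, which is not, went from 1.77 to 0.07, whereas Cox7c (1.28 to 1.33) and Upk3a (-1.25 to -1.66) did not shrink. Since the white fat levels of the 2 groups did not overlap, this covariate cannot be told apart from genotype, and the SE of all 83 genes was larger with it.

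In the epithelial lists given below, no gene differed by as much as Cfd, Adipoq or Plin1. Krt16, a keratin of stressed and proliferating keratinocytes, was at 4.54, 4.87 and 4.33 in wild-type and 3.08, 3.81 and 2.74 in Nrf2-/-Keap1-/- pups. The difference was -1.36 ± 0.24 (2.57-fold, adjusted p = 0.047), and it was -0.76 with the fat level as a covariate. Keap1-/- pups had 6.38, 6.10 and 6.25, above every other P7 array. Krt23 was at 5.63, 5.66 and 5.34 against 4.61, 4.80 and 4.79 (-0.81 ± 0.14, adjusted p = 0.046). Krt17 did not pass (-0.61 ± 0.17, adjusted p = 0.11), though its groups did not overlap (3.70, 3.91 and 3.58 against 3.02, 3.30 and 3.04).

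Of 21 tested keratins, Krt16 and Krt23 were called, both lower, beside 0.126% of all tested genes, and the median was -0.26, which median centring turned to 0.01. Both calls were lost under median centring, with processed signals and without background correction, and Krt16 was called in 8 of 24 settings and Krt23 in 6 of 23. Without overlap, 5 of the 21 lay below wild-type and 1 above, beside 10.1% and 11.8% of all tested genes. The keratins that mark the layers of the esophagus were not called. Krt5 of the basal layer was at 3.38, 3.99 and 3.47 against 3.13, 2.98 and 3.24 (-0.50 ± 0.17, adjusted p = 0.16). Krt13 of the suprabasal layers was at 4.53, 5.16 and 4.25 against 4.70, 4.45 and 4.77 (-0.01 ± 0.20, adjusted p = 0.99), with probes at -0.41 and 0.40. Krt4, the partner of Krt13, was at 5.72, 6.16 and 5.80 against 5.62, 5.57 and 5.93 (-0.19 ± 0.37, adjusted p = 0.84). Wild-type replicate 2 was the highest in each of the 3 keratins, as in the squamous epithelium list (0.39 against -0.12 and -0.07).

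None of 12 tested squamous epithelium genes, 15 basal layer genes, 34 genes of the cornified envelope and late differentiation or 47 genes of the epidermal differentiation complex was called. Their medians were -0.06, 0.00, -0.41 and -0.44, and these moved with the scaling and covariates. Median centring gave 0.09, 0.26, -0.17 and -0.14, and scale normalization -0.56, -0.04, -0.81 and -0.76. With the fat level as a covariate the cornified envelope and differentiation complex medians were 0.53 and 0.44, and with sex -0.20 and -0.08, so no direction is drawn. Median centring called 2 genes of the differentiation complex higher, and scale normalization called 1 higher and 1 lower there and 1 cornified envelope gene lower. The medians of the cornified envelope and differentiation complex lists were -0.36 and -0.29 for Nrf2-/- and 0.33 and 0.33 for Keap1-/- against wild-type. Below wild-type without overlap lay 4 of 12 squamous, 1 of 15 basal, 7 of 34 envelope and 8 of 47 complex genes. Over all tested genes that share was 10.1%. Above wild-type lay 0, 3, 0 and 4, beside 11.8%. A list of keratinized layer genes from the literature (33 tested, none called, median -0.16) had 8 below and 1 above. Cell division genes (15 tested, none called) had a median of -0.32, with 6 below and 0 above wild-type without overlap. That median was -0.12 under median centring and 0.22 with the fat level as a covariate. One P63 target list (54 tested) and one Pax9 target list (19 tested) were taken from the literature by the study. Each had 1 call, lower, beside 0.126% of all tested genes. These were Krt16 and Krt23, the keratins already counted above.

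Upk3a, a uroplakin of the urothelial plaque, had a level of 0.40, 0.19 and 0.57 in wild-type and between -1.07 and -0.54 in the 3 Nrf2-/-Keap1-/- pups. The difference was -1.25 ± 0.15 (2.39-fold, adjusted p = 0.016), called in 15 of 24 settings. Nrf2-/- pups had -1.21, -0.94 and -1.04 and Keap1-/- pups -1.49, -1.65 and -1.47, so the wild-type arrays were above the arrays of all 3 mutants. The other tested uroplakins were not called (Upk1b -0.21, Upk2 -0.20, Upk3b 0.22). Further called decreases were Ptpru, a receptor tyrosine phosphatase (-0.87 ± 0.13, adjusted p = 0.027), Brinp1, an inhibitor of the neural cell cycle (-0.86 ± 0.13, adjusted p = 0.031), Nbas, which acts in retrograde transport (-0.92 ± 0.16, adjusted p = 0.046), and Arhgef39, a guanine nucleotide exchange factor (-0.83 ± 0.15, adjusted p = 0.0497). The unnamed features TC1660846, AK041395 and NAP052665-1 fell by 1.06, 1.03 and 0.85 on the log2 scale. Of 24 settings, Ptpru was called in 14, Brinp1 in 12, Nbas in 10 and Arhgef39 in 6. The unnamed features were called in 9, 12 and 6. The 2 probes of Arhgef39 differed by -1.13 and -0.52.

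The genes that Nrf2 is known to drive gave no call between Nrf2-/-Keap1-/- and wild-type pups. Of 81 tested members of 6 families (glutathione synthesis, glutathione S-transferases, quinone and carbonyl enzymes, thioredoxin and peroxide enzymes, NADPH enzymes, drug export and metal storage), 0 passed in limma, 6 were higher and 8 lower at an unadjusted p of 0.05, and the median was -0.10. Median centring gave a median of 0.15, so no direction is drawn. Under other settings Gstm1 was called lower in 2 and Nqo1 in 1. The lowest adjusted p was 0.056, of Aox1, an aldehyde oxidase (0.97).

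Named targets showed both overlap and modest separation. Nqo1, a quinone reductase, was at 0.45, -1.06 and -1.96 in wild-type and -2.65, -1.67 and -2.56 in the double mutant (-1.43 ± 0.48, adjusted p = 0.16), with wild-type replicate 3 inside the double mutant range. Gstm1, a glutathione S-transferase, was at -0.75, -0.79 and -1.13 against -1.74, -1.56 and -1.48 (-0.71 ± 0.16, adjusted p = 0.077), without overlap. Gclm, the regulatory subunit of glutamate-cysteine ligase, was at -0.58, -0.53 and -0.67 against -0.34, -0.61 and -0.51 (0.11 ± 0.17, adjusted p = 0.79). Gclc, its catalytic subunit, differed by -0.37 ± 0.41, Gsta3 by -0.84 ± 0.47, Akr1b8 by 0.09 ± 0.21, Txnrd1 by -0.09 ± 0.17 and Srxn1 by -0.30 ± 0.15, with adjusted p from 0.34 to 0.86. Slc7a11, the cystine transporter, was not well above background on any of the 6 arrays and was not tested.

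**Figure D4:**
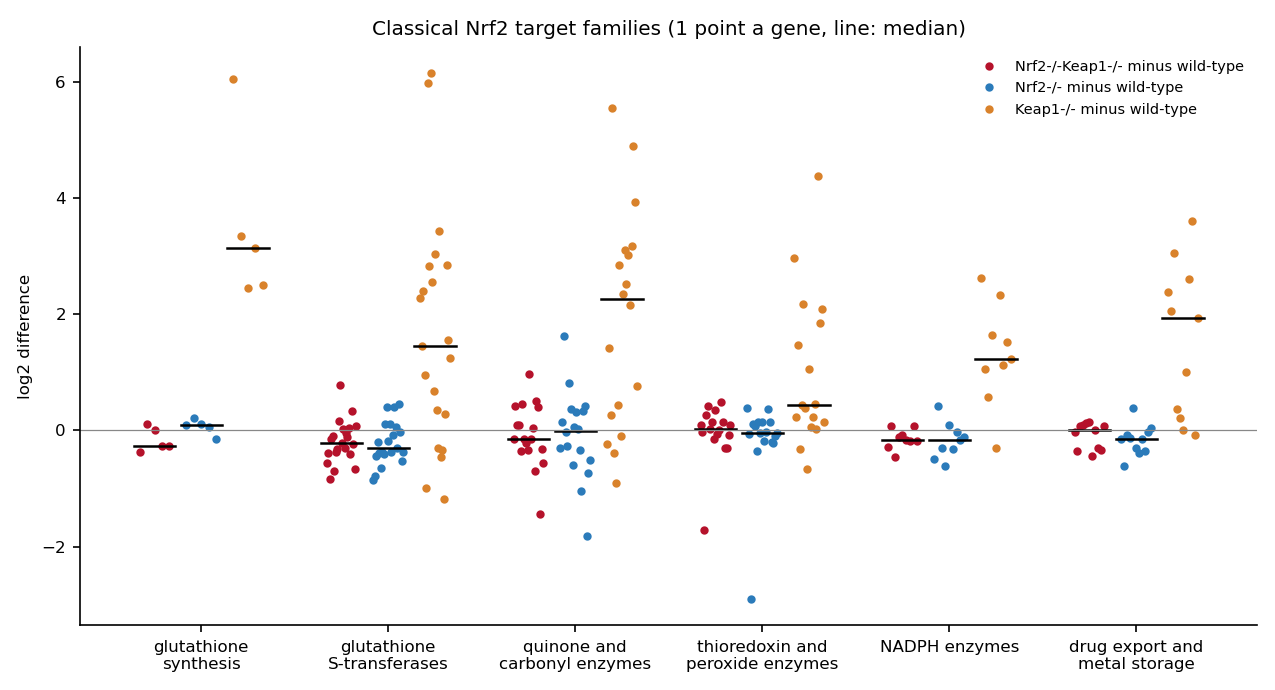
Log2 differences (y axis) of the 81 tested genes by Nrf2 target family (x axis) for Nrf2-/-Keap1-/- (red), Nrf2-/- (blue) and Keap1-/- pups (orange) minus the same wild-type pups. Each point is a gene and lines are medians of a family. The red and blue medians lie between -0.31 and 0.09, and the orange medians between 0.43 and 3.13.

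The double mutant was also set against each single mutant in the same fit. No gene was called between Nrf2-/-Keap1-/- and Nrf2-/- pups (0% of 18249, limma, lowest adjusted p = 0.19), and 1147 genes (6.29%) passed an unadjusted p of 0.05. A p that misses the threshold does not show that the genotypes were alike, and the fat genes differed by 2.94 (Cfd), 2.61 (Adipoq) and 2.57 (Plin1) on the log2 scale with adjusted p from 0.19 to 0.41. Slide as a fixed block leaves only double mutant replicate 1 beside the Nrf2-/- arrays, so no count is given for that fit.

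Between Nrf2-/-Keap1-/- and Keap1-/- pups, 6225 genes were called (34.1%). Of the 81 Nrf2 targets, 51 were lower in the double mutant and 3 higher. Gstm1 differed by -6.68 (adjusted p = 2.2e-09), Gclc by -6.41, Nqo1 by -6.33, Akr1b8 by -5.45 and Srxn1 by -4.67, all called. The Keap1-/- arrays were on a slide, scan and software version of their own, so these differences cannot be told apart from that batch. Wild-type pups entered each of the comparisons with wild-type, in which Nrf2-/- pups gave 3 calls (0.0164%) and Keap1-/- pups 6215 (34.1%). The median of the 81 targets was -0.10 for Nrf2-/-Keap1-/-, -0.10 for Nrf2-/- and 1.46 for Keap1-/- pups.

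The core of the antioxidant response element was searched as TGACNNNGC on both strands in the 250 bases before the start of each RefSeq promoter (GRCm38.p6). It was found in 3338 of 32851 promoters (10.2%) and, of 9 classical targets named here, in 3 of the 8 with a promoter sequence, Gsta3, Gclm and Txnrd1. The promoters of Gsta3 and Gclm, which hold the core and were not called, and of Upk3a, which fell and does not hold it, are shown. Capitals mark the match, which reads as the reverse complement in Gclm. They lie at chr1:21240335-21240584, chr3:122245307-122245556 and chr15:85016891-85017140, each on the plus strand.
Gsta3: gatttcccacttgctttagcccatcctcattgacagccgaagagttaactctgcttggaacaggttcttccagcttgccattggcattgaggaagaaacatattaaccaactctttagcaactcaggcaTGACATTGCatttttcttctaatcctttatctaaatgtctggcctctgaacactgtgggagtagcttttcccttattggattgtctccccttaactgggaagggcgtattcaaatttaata
Gclm: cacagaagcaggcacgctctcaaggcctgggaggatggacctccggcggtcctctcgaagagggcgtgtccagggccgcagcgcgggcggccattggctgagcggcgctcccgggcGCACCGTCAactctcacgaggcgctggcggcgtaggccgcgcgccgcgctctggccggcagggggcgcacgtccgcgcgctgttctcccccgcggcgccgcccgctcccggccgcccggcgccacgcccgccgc
Upk3a: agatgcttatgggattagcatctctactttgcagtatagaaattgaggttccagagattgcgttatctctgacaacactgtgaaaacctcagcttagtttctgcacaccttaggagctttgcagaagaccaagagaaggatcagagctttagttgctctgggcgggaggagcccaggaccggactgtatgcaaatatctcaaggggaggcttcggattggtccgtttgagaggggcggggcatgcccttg
A match in these letters is a description of the sequence and not of binding, and its absence in this window says nothing of the factor.

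Genes beside the targeted loci were examined last, since mutant chromosomes carry the alleles and the sequence around them. Rbm45, an RNA-binding protein, lies 0.687 Mb from Nfe2l2 on chromosome 2 (gene positions of GRCm38.p6). It was at -1.72, -1.66 and -1.57 in wild-type and 0.95, 1.04 and 1.02 in Nrf2-/-Keap1-/- pups, a difference of 2.66 ± 0.10 (6.30-fold, adjusted p = 2.2e-07). Nrf2-/- pups had 0.85, 1.13 and 0.98 and Keap1-/- pups -1.69, -1.88 and -1.88, so its level was high on every array with the Nrf2 null allele and low on every other P7 array. The difference between double mutant and Nrf2-/- pups was 0.02 (adjusted p = 0.99).

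Ppan, a ribosome biogenesis factor, lies 0.344 Mb from Keap1 on chromosome 9. It was at -0.62, -0.71 and -0.88 in wild-type and 0.03, -0.15 and -0.03 in Nrf2-/-Keap1-/- pups (0.69 ± 0.10, adjusted p = 0.027). Keap1-/- pups had 0.70, 0.97 and 0.85 and Nrf2-/- pups -0.55, -0.69 and -0.63, so both genotypes with the Keap1 null allele lay above both without it. The double mutant was 0.89 under Keap1-/- pups on the log2 scale (-0.89, adjusted p = 0.00013) and 0.57 above Nrf2-/- pups (adjusted p = 0.19).

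Within 2 Mb, 1 of 23 tested genes beside Nfe2l2 and 1 of 71 beside Keap1 was called, and within 10 Mb 1 of 108 and 1 of 119 (0.926% and 0.84%), beside 0.455% of all tested genes. Rbm45 and Ppan were the called genes in these windows. The medians of the genes within 10 Mb were 0.06 and -0.03. Whether these 2 differences come from the alleles, from flanking sequence or from the loss of either protein was not tested.

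**Figure D5:**
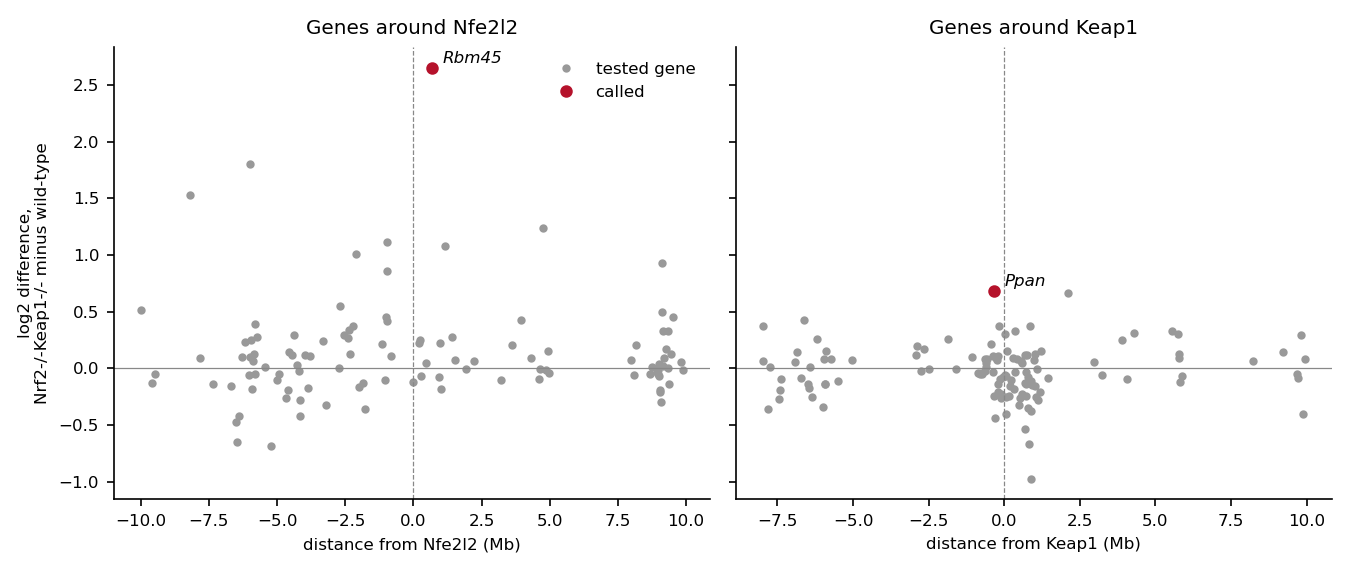
Log2 difference between Nrf2-/-Keap1-/- and wild-type pups (y axis) for tested genes within 10 Mb of Nfe2l2 (left, 108 genes) and Keap1 (right, 119 genes), by distance in Mb (x axis). Grey points were not called and red points were called. Rbm45, at 2.66, stands above its neighbours, and Ppan lies at 0.69.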

How the data were processed

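Total RNA of esophageal tissue was hybridised in Cy5 against a Cy3 reference on Agilent 4x44k arrays. The deposited scanner files hold spot intensities in both colours before background subtraction. The labels name Agilent Feature Extraction 9.1, and the file headers 10.5.1.1 and 10.7.3.1. The authors' deposited value table holds log10 ratios, which matched the log ratios of Feature Extraction within rounding and served as an alternative. Mean intensities were corrected with normexp (offset 50) and normalised by loess within arrays in limma 3.58.1, in R 4.3.3. Control spots were left out and outlier-flagged spots kept. No spot of these 6 arrays had a local background over 5 times the array's median. Probes of a gene were averaged (27434 of 41174 probes matched a current gene by accession). A gene was kept if its Cy5 signal passed the scanner's background test on 3 or more of the 6 arrays. The limma fit took 12 P7 arrays in 4 groups without covariates, and p-values were adjusted by Benjamini-Hochberg over every gene kept, with a threshold of 0.05. Each group's number of arrays limits the precision. Genes named were both targeted genes, the 10 largest increases and decreases without overlap between groups, up to 6 called members of each list, fixed fat and keratin markers, called genes near the loci and 9 classical targets. Genes, members and lists were chosen with earlier results of these data known. Fits were tested on simulated data. Alternatives covered background, scaling, filters, probes, arrays, blocks and covariates, and sex and muscle level were added after seeing the data.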

Additional observations from a re-analysis of the deposited data

How the results depend on the processing

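The count of genes called between Nrf2-/-Keap1-/- and wild-type pups moved with most settings. Higher and lower calls were 3 and 1 with the deposited ratios and 4 and 1 with the scanner software's processed signals. They were 39 and 10 without background correction, and 28 and 8 with both channels above background on 60% of arrays. A fit of the 2 groups alone gave 2 and 1, and all 27 arrays gave 159 and 25. The counts were 1 and 1 with the fat level as covariate, and 25 and 5 at 2-fold or more. Slide as a random block gave 307 and 180, with a fitted correlation within slides of -0.098. The wild-type slide held no double mutant array, so that fit cannot separate slide from genotype. Lower calls were 7 under median centring and 61 under scale normalization. Alternatives chosen after seeing the data gave 2 and 1 with sex as covariate and 52 and 10 with the muscle level as covariate. A further one, on the arrays with high Xist, leaves 1 double mutant array, so no count is given for it. Leaving out 1 array gave 4 to 203 higher and 1 to 66 lower calls. Same-numbered wild-type and double mutant arrays did not deviate together (r = -0.24, 0.14 and 0.25), and the replicate block gave 65 higher and 16 lower calls. The cause of these changes was not tested.

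Calls between Nrf2-/-Keap1-/- and Nrf2-/- pups numbered 1 for the deposited ratios, for processed signals, without outlier-marked spots and with the replicate block. They numbered 4 over all 27 arrays and 0 to 1 with 1 array left out. Calls against Keap1-/- pups numbered 3208 with the fat level as covariate, 1473 at 2-fold or more and 4264 to 6545 with 1 array left out. The white fat median was 0.058 with the fat level as covariate, a value that says nothing of the list since the covariate is the mean of the same genes, and 0.58 to 0.99 with 1 array left out. The median of the Nrf2 target families was 0.15 under median centring and -0.13 to -0.03 with 1 array left out.

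Some genes that were not called gained a call, Ucp1 in 6 settings, Gstm1 in 2 and Nqo1 in 1, and others changed sign. Under median centring the differences were 0.033 for Cidea, 0.34 for Krt13, 0.15 for Krt4 and 0.29 for Txnrd1, and under scale normalization 0.036 for Txnrd1. With the fat level as covariate they were -0.95 for Cidec, -1.53 for Fabp4, -0.81 for Ucp1, -0.21 for Gclm and -0.65 for Akr1b8. Akr1b8 was at -0.023 in the deposited ratios and in processed signals. With the muscle level as covariate Krt13 was at 0.18 and Krt4 at 0.027, and on the arrays with high Xist Gclm was at -0.014. With 1 array left out, Krt13 ran from -0.20 to 0.25, Akr1b8 from -0.13 to 0.29 and Txnrd1 from -0.30 to 0.050. A block for scan and software version was not run, since wild-type and double mutant arrays shared both. With 3 arrays a group and slide and sex unequal between the groups, small differences may have been missed, and a dim signal limits the genes near background.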
